A study of Capra hircus with 12 samples.

Results

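The comparison described here sets feed restricted Palmera goats (PE) against feed restricted Majorera goats (ME). It holds the 3 PE and 3 ME libraries, 6 of the 12 mammary gland libraries of the study. The genes are the 920 that the deposited table of this pair lists, out of 4974 genes in any of the deposited tables. The remaining 6 libraries come from Palmera (PC) and Majorera (MC) goats on the control diet, 3 each, and serve below to ask whether a breed difference was also present without feed restriction.

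Palmera and Majorera are dairy goat breeds of the Canary Islands, described by the study as susceptible and tolerant to seasonal weight loss. PE and ME goats were fed wheat straw with vitamins and minerals, whereas PC and MC goats received a ration that met the needs of lactation. All were adult goats, in peak lactation when the trial began, and each library is the biopsy of 1 goat taken from the left side of the udder when the trial ended. Both restricted groups shared a pen, and both control groups shared another. The goats of a group were separate animals, so the spread within a group is between animals.

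The lactating mammary gland consists of secretory epithelial cells that draw glucose, amino acids and fatty acids from blood and turn them into casein, lactose and milk fat. Contractile myoepithelial cells, fibroblasts, adipocytes, vessels and immune cells surround them. When milk is no longer made or removed, the gland involutes: epithelial cells are lost, macrophages and other leukocytes enter and proteases remodel the matrix. Energy deficit in ruminants is known to lower the synthesis of milk fat and lactose.

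Expression is given as CPM, the expected count of a gene per 1000000 mapped reads after scaling by TMM factors (a correction for libraries in which a few genes take many reads). Effective library sizes, in units of 1000000 reads, were 48.9, 29.4 and 53.4 in PE and 40.3, 83.7 and 47.4 in ME. They lay between 31.8 and 32.0 in PC and between 28.3 and 31.2 in MC. Log2FC is PE over ME in each comparison of the restricted groups, with its standard error (SE). A differentially expressed gene (DEG) had an adjusted p under 0.05, a Log2FC above 1.5 or below -1.5, and over 100 counts in 1 library or more. Tissue identity was checked on the milk proteins: CSN2, the beta-casein gene, had 98316, 307968 and 55064 CPM in PE and 217245, 50748 and 151894 CPM in ME.

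Libraries are called by group and replicate, PE1 to PE3 and ME1 to ME3, so that ME2 means a library and not the malic enzyme gene. ME2 stood apart from the other restricted libraries, and results that rest on it are given with and without it. Its TMM factor was 2.00, against 0.64 to 1.39 in the other restricted libraries. Of the 574 table genes that were lower in PE, 427 had their highest CPM of the 6 libraries in ME2, 56 in ME1 and 91 in ME3. The 346 genes that were higher in PE peaked in PE1 (99 genes), PE2 (171 genes) or PE3 (76 genes). Without ME2, the median Log2FC of the lower genes moved to -0.83, against -1.53 with it. That of the higher genes was 1.10 without ME2 and 1.14 with it. At the level of single genes, 209 lower genes kept less than a 0.5 share of their Log2FC and 37 of these turned positive, whereas 0 higher genes lost as much. This contrast is one-sided, because 0 of the higher genes peaked in ME2. The matching count without PE2, in which 171 higher genes peaked, is not given, so their reliance on PE2 is left unmeasured. NR4A1 and SIK1, given below, had smaller Log2FC without PE2.

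**Figure D1:**
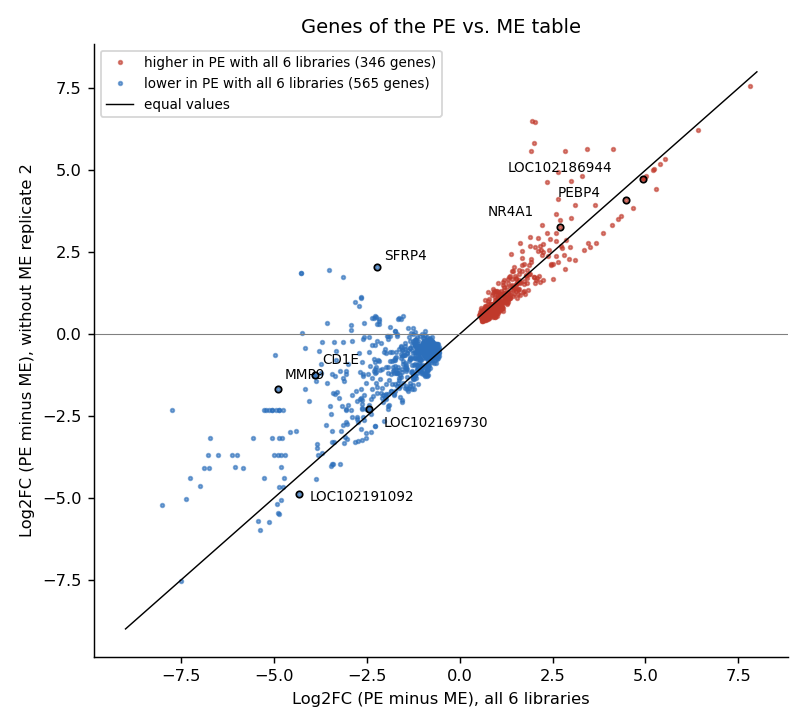
Log2FC of PE over ME for the genes of the comparison, with all 6 libraries (horizontal axis) and without ME2 (vertical axis), 346 higher and 565 lower genes; 9 lower genes had no counts left without ME2. Points on the diagonal did not depend on ME2, and many of the lower genes lie nearer to 0 without ME2, with 37 of them above 0.

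By edgeR's quasi-likelihood test with Benjamini-Hochberg adjustment over 15221 genes, 0 genes were DEGs (0% of the genes tested), and the smallest adjusted p was 0.35. At an unadjusted p under 0.05, 679 of the table's genes passed, 284 higher and 395 lower in PE, as did 25 of the 1420 genes fitted from the other tables. Over all 2340 genes fitted, 30.1% reached that p, 12.8% higher and 17.3% lower in PE. The deposited table lists only genes that already had an unadjusted p under 0.05 in this same comparison, so these counts and those of its genes below describe the list and test nothing. The CPM of the PE and ME libraries did not overlap for 506 of the 920 genes (55%), 221 higher (24%) and 285 lower (31%) in PE. Over all genes fitted the share was 24%. The 2340 genes fitted include the 920 of the table, and the other 1420 were selected in other comparisons. Neither this 24% nor the 30.1% above is therefore a background of unselected genes. The gene lists below likewise cover only members with counts in the deposited tables. An exact permutation test of 3 against 3 libraries cannot go below p = 0.1.

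Other tests called more. DESeq2's Wald test called 13 genes (0.0854% of the genes tested), 6 higher and 7 lower in PE, and the groups did not overlap for any of the 13. edgeR's exact test called 8 genes, all among those 13, and limma voom called 0. When DESeq2 was repeated without each library in turn, it called between 6 (without PE1) and 25 (without ME1) genes. LOC102169730 was called in 6 of these 6 settings, LOC102186944 in 5, and PEBP4, LOC102172792 and LOC102191092 in 4. Of the 13 genes, 7 were called in 3 settings or fewer.

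Single enzymes of sugar and lipid metabolism are described next, and 0 of them were DEGs of the quasi-likelihood test. GPD1, the cytosolic glycerol-3-phosphate dehydrogenase that makes the glycerol backbone of triglycerides, had 9.37, 5.55 and 5.99 CPM in PE and 2.51, 1.65 and 3.00 CPM in ME. The lowest PE library was above the highest ME library, and the Log2FC was 1.56 (SE 0.29) with all libraries and 1.35 without ME2. The adjusted p of GPD1 was 0.49 in the quasi-likelihood test. DESeq2 called GPD1 with all libraries and in 1 of 6 leave-one-out settings, and the exact test did not call it. ALDOC, an aldolase of glycolysis, had 0.961, 2.52 and 0.917 CPM in PE and 0.720, 0.370 and 0.232 CPM in ME. ENO3, the muscle form of the glycolytic enolase, ran the other way, with 0.266, 0.102 and 0.112 CPM in PE and 0.670, 0.932 and 0.232 CPM in ME, where PE1 was above ME3 (Log2FC -1.90, SE 0.60). The 4 fitted of 25 listed genes of lactose and glucose use were all higher in PE with a median Log2FC of 0.31, but without ME2 1 of 4 was higher and the median was -0.01.

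Of 28 genes listed for milk fat synthesis, 10 were fitted, 9 of them higher in PE (7 with mapped reads alone as the library size). The 5 that are in the table, GPD1, ELOVL6, ACSL1, INSIG1 and GK, were all higher, each at an unadjusted p under 0.05, as were 679 of all 920 table genes in either direction. The median Log2FC of the 10 was 1.02, and 0.90 without ME2, beside -0.05 over all genes fitted. ELOVL6, which lengthens palmitic acid to stearic acid, had 5.54, 5.58 and 2.08 CPM in PE and 0.919, 1.93 and 1.08 CPM in ME. PE3 was close to ME2, and the other PE libraries were well above every ME library (Log2FC 1.72, SE 0.44). ACSL1, which activates long-chain fatty acids as acyl-CoA, had 97.2, 131 and 50.2 CPM in PE and 47.9, 21.4 and 33.0 CPM in ME. PE3 and ME1 nearly met, and the Log2FC was 1.46 (SE 0.41). FA2H, a fatty acid hydroxylase of sphingolipid synthesis, had 2.15, 3.06 and 2.26 CPM in PE and 0.993, 0.191 and 0.992 CPM in ME (Log2FC 1.83, SE 0.55).

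FASN, the fatty acid synthase and most abundant gene of that list, did not follow this pattern. It had 997, 1774 and 574 CPM in PE and 1431, 216 and 895 CPM in ME, so that the groups overlapped (Log2FC 0.41, SE 0.68, and -0.05 without ME2). The summed CPM of the 10 genes was 1151, 1979 and 671 in PE and 1519, 256 and 958 in ME, with ME2 the lowest. FASN made up most of it in every library, so the overlap of the sums is that of FASN and says little of the other members.

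The 10 fitted genes of cholesterol synthesis, of 24 listed, were all higher in PE, but 8 were without ME2 and 3 with mapped reads alone. Their median Log2FC was 0.42, and 0.20 without ME2. Of these genes, 3 had an unadjusted p under 0.05 (30.1% of all genes fitted did), and 1 did without ME2. MSMO1, a sterol methyl oxidase, had 18.4, 12.7 and 16.3 CPM in PE and 13.06, 5.398 and 10.01 CPM in ME (Log2FC 0.75, and 0.47 without ME2), with PE2 below ME1. INSIG1, a sterol-regulated brake on cholesterol and fatty acid synthesis, had 32.6, 49.9 and 28.8 CPM in PE and 26.4, 9.05 and 16.5 CPM in ME.

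**Figure D2:**
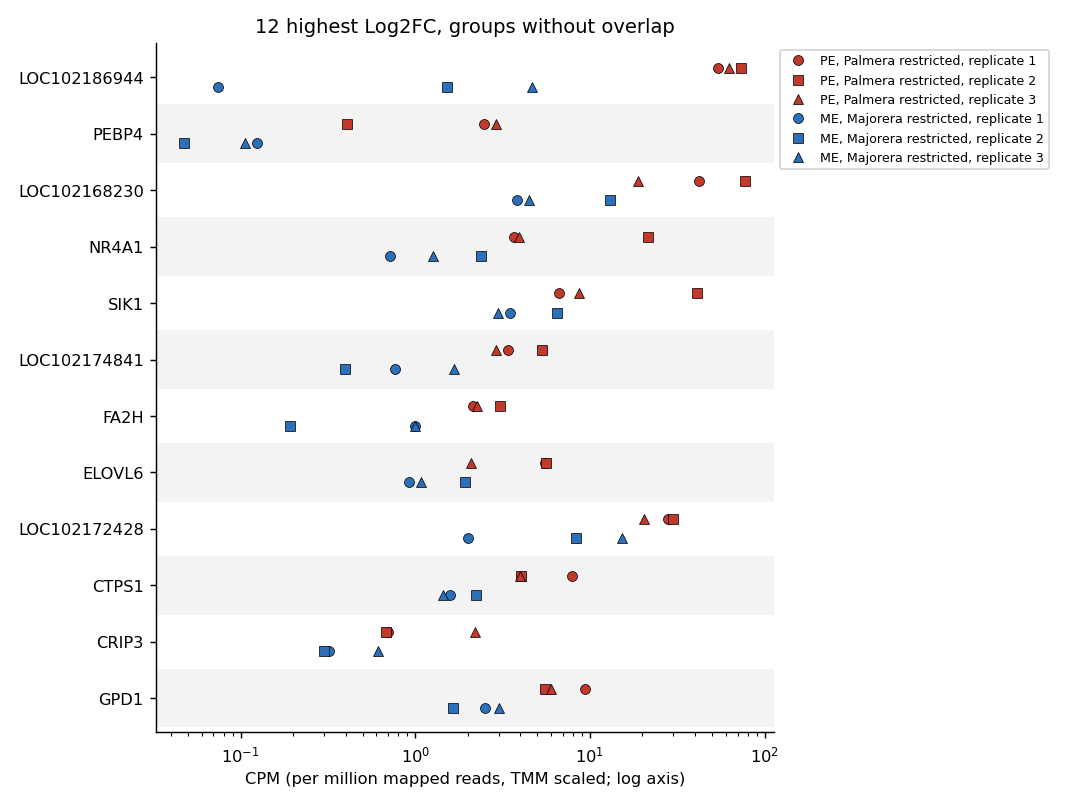
CPM (log axis) of the 12 genes with the highest Log2FC among those whose groups did not overlap and that had more than 100 counts in a library; each point is 1 library, with PE above ME in each row. LOC102186944 stands between 54.1 and 73.2 CPM in PE, against 0.0745 to 4.64 CPM in ME, and NR4A1 and SIK1 have 1 PE library far above the others.

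The data on nucleotide and serine synthesis rest on few genes. CTPS1, the CTP synthase, had 7.85, 4.02 and 3.99 CPM in PE and 1.59, 2.22 and 1.44 CPM in ME. No ME library reached the lowest PE library (Log2FC 1.59, SE 0.33, and 1.82 without ME2). IMPDH1, the rate-limiting enzyme of guanine nucleotide synthesis, had 2.80, 2.79 and 3.05 CPM in PE and 2.01, 1.86 and 1.77 CPM in ME (Log2FC 0.62, SE 0.18). AMPD3, an AMP deaminase, had 1.72, 1.91 and 2.69 CPM in PE and 0.596, 0.896 and 0.718 CPM in ME (Log2FC 1.51, SE 0.29). The groups did not overlap for these 3 genes, and CTPS1 spread the most within PE. Only 3 of the 33 listed genes of nucleotide synthesis were fitted, and the third of them, RRM2, which supplies deoxynucleotides for DNA replication, was lower in PE (Log2FC -3.86, and -1.44 without ME2).

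PHGDH, the first enzyme of serine synthesis, had 16.95, 3.98 and 7.30 CPM in PE and 4.02, 2.70 and 4.39 CPM in ME. SDS, the serine dehydratase that breaks serine down to pyruvate, had 49.98, 9.67 and 185 CPM in PE and 20.3, 8.17 and 27.7 CPM in ME. PE2 lay among the ME libraries for both genes. Without PE3, the Log2FC of SDS was 0.68, against 2.14 (SE 0.93) with it. All 4 table genes of the 24 listed for amino acid and serine metabolism were higher in PE, PHGDH, PSPH, SDS and TRIB3, of which PHGDH had an unadjusted p under 0.05 with ME2 and none had without it. The 6 fitted members had a median Log2FC of 1.05, and 0.72 without ME2.

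The highest Log2FC among non-overlapping genes with more than 100 counts in a library was that of LOC102186944, a secreted protein named in the annotation used by the study after the cattle allergen Bos d 2, a lipocalin. It had 54.1, 73.2 and 62.4 CPM in PE and 0.0745, 1.52 and 4.64 CPM in ME. The PE libraries lay within a narrow range and every ME library was far below them (Log2FC 4.93, SE 0.97). In the controls, the gene had 428, 400 and 41.7 CPM in PC and 124, 75.7 and 17.9 CPM in MC. Those groups overlapped, and PC3 was below 2 of the MC libraries. LOC102168230, which RefSeq lists as AZGP1, a secreted zinc-binding glycoprotein with a role in lipid mobilization, had 42.0, 77.7 and 18.7 CPM in PE and 3.85, 13.0 and 4.48 CPM in ME (Log2FC 2.69, SE 0.64, and 3.48 without ME2).

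PEBP4, of the phosphatidylethanolamine-binding protein family, had 2.47, 0.408 and 2.88 CPM in PE and 0.124, 0.0478 and 0.106 CPM in ME. PE2 lay below the other PE libraries but above every ME library (Log2FC 4.48, SE 0.78). LOC102182683, annotated as a growth-regulated alpha-like chemokine, had 12.6, 5.17 and 10.3 CPM in PE and 3.70, 3.00 and 3.57 CPM in ME (Log2FC 1.46, SE 0.30). SCGB2A2, a mammary secretoglobin, had 11.1, 17.3 and 3.03 CPM in PE and 5.29, 0.597 and 3.63 CPM in ME, and the groups overlapped. LOC102174841 (Log2FC 2.07), LOC102172428 (Log2FC 1.62) and CRIP3 (Log2FC 1.57) complete the 12 highest genes.

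NR4A1, SIK1 and ATF3, genes of the immediate response to a stimulus, were highest in PE2. NR4A1, an orphan nuclear receptor induced within minutes of a stimulus, had 3.68, 21.6 and 3.91 CPM in PE and 0.720, 2.39 and 1.27 CPM in ME. Its Log2FC was 2.69 (SE 0.78) with all libraries and 1.35 without PE2. SIK1, a salt-inducible kinase of cAMP signalling, had 6.69, 40.9 and 8.68 CPM in PE and 3.501, 6.52 and 2.98 CPM in ME, and its Log2FC of 2.10 was 0.82 without PE2. For both genes the other PE libraries stayed above the ME libraries. ATF3, a stress-induced transcription factor, had 5.97, 27.1 and 6.75 CPM in PE and 4.05, 8.62 and 4.81 CPM in ME, where ME2 was second to PE2. Of 30 listed immediate early genes 14 were fitted, 10 of them higher in PE (13 without ME2, 3 with mapped reads alone), with a median Log2FC of 0.42, and 0.77 without ME2.

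HSP70.1, the inducible 70 kDa heat shock protein, had 71.6, 85.4 and 14.1 CPM in PE and 16.96, 19.3 and 12.6 CPM in ME. Here PE3 lay within the ME range (Log2FC 1.81, SE 0.58). HSPA6, of the same family, had 2.27, 4.63 and 0.879 CPM in PE and 1.12, 0.764 and 1.27 CPM in ME. Within the same list of 20 stress genes, of which 10 were fitted, the metallothionein MT2A was lower in PE, with 3.17, 6.26 and 4.43 CPM in PE and 5.34, 19.5 and 18.2 CPM in ME (Log2FC -1.64, SE 0.48). The list's median Log2FC was 0.11, with 6 genes higher and 4 lower (3 higher with mapped reads alone).

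The fitted macrophage genes and most fitted genes of matrix proteolysis were lower in PE, and their sums were highest in ME2. All 17 fitted genes of the 30 listed macrophage markers were lower in PE (13 without ME2), with a median Log2FC of -1.11, and -0.46 without ME2. Of all 2340 genes fitted, 1270 were lower. Markers were fitted only where a deposited table listed them as differing, so these counts describe the fitted markers and not the whole list. Of the 13 that are in the table, 9 had an unadjusted p under 0.05 (679 of all 920 table genes did) and 8 did not overlap between the groups (506 of 920). Their summed CPM was 141, 101 and 170 in PE and 147, 475 and 205 in ME, so ME1 lay within the PE range. In bulk tissue, fewer cells of a type and less RNA of each cell cannot be told apart. The part of these markers in the other differences that peak in ME2 was not tested.

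CD68, a lysosomal glycoprotein of macrophages, had 8.98, 5.003 and 10.8 CPM in PE and 14.4, 44.9 and 19.4 CPM in ME. ME2 was the highest, yet ME1 and ME3 were also above every PE library (Log2FC -1.66, SE 0.46, and -1.01 without ME2). GPNMB, a membrane glycoprotein of lipid-laden macrophages, had 4.81, 2.11 and 6.06 CPM in PE and 9.04, 27.1 and 11.5 CPM in ME (Log2FC -1.86, and -1.22 without ME2). ADAMDEC1, a metalloprotease-like protein of tissue macrophages and dendritic cells, had 0.123, 0.340 and 0.561 CPM in PE and 0.819, 7.63 and 2.93 CPM in ME. Its Log2FC was -3.47 (SE 0.85), and -2.43 without ME2. S-LZ, a lysozyme that cleaves bacterial cell walls, had 0.573, 0.613 and 1.03 CPM in PE and 1.19, 10.02 and 2.32 CPM in ME, with PE3 and ME1 nearly equal (Log2FC -2.61, and -1.22 without ME2). ENPP1, an ectoenzyme that makes pyrophosphate from ATP, had 1.74, 1.36 and 2.04 CPM in PE and 3.48, 17.9 and 4.14 CPM in ME (Log2FC -2.31, and -1.13 without ME2).

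MMP9, the gelatinase B of leukocytes and remodelling tissue, had the lowest Log2FC of the non-overlapping genes above 100 counts with no library at 0. It had 0.143, 0.374 and 0.879 CPM in PE and 1.34, 39.6 and 1.77 CPM in ME. ME2 stood far above all others, and the Log2FC of -4.90 (SE 1.46) was -1.69 without it. CTSS, a lysosomal cathepsin of antigen-presenting cells, had 9.82, 6.19 and 10.01 CPM in PE and 10.6, 27.4 and 18.2 CPM in ME (Log2FC -1.11, and -0.71 without ME2). LOC102185465, which RefSeq lists as CTSL, cathepsin L, had 0.204, 0.0681 and 0.225 CPM in PE and 0.348, 6.13 and 0.464 CPM in ME (Log2FC -3.74, and -1.18 without ME2). LIF, the cytokine that starts involution in mice, was at 0, 0 and 0.0561 CPM in PE and at 0.0745, 0.645 and 0.0633 CPM in ME (Log2FC -3.56, and -1.48 without ME2). Of 28 listed proteases and involution genes 17 were fitted, 14 of them lower (10 without ME2). The 10 in the table were all lower, 6 at an unadjusted p under 0.05 (3 without ME2), beside 679 of all 920 table genes at that p. The median Log2FC of the 17 was -0.99, and -0.14 without ME2. The sums were 212, 90.0 and 165 CPM in PE and 146, 445 and 188 CPM in ME.

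**Figure D3:**
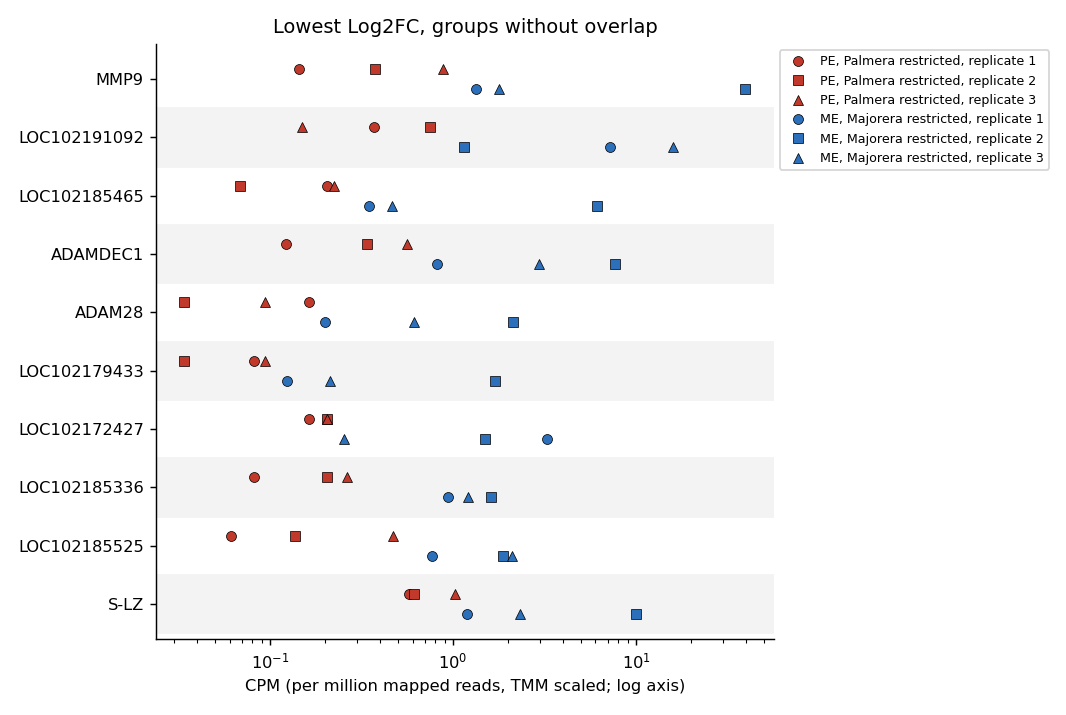
CPM (log axis) of 10 of the 12 genes with the lowest Log2FC among those whose groups did not overlap and that had more than 100 counts in a library; ATP6V1B1 and SLC2A5 are left out because PE libraries were at 0. Each point is 1 library, with PE above ME in each row, and MMP9 reaches 39.6 CPM in ME2 against 1.34 and 1.77 CPM in ME1 and ME3.

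Vessel, proliferation and matrix genes shared the peak in ME2. Of 23 listed endothelial genes 6 were fitted, 5 of them lower and 1 higher in PE, with and without ME2. The 4 in the table, DARC, SELP, VCAM1 and TIE1, were lower without overlap, each at an unadjusted p under 0.05 (3 of 4 without ME2). Of all 920 table genes, 679 reached that p and 506 did not overlap. The list's median Log2FC was -1.37, and -0.72 without ME2. DARC (ACKR1), a chemokine-binding receptor of venules, had 1.12, 0.613 and 1.74 CPM in PE and 3.03, 12.2 and 1.96 CPM in ME (Log2FC -2.29, and -1.06 without ME2). SELP, the selectin on which leukocytes roll, had 1.00, 0.851 and 1.52 CPM in PE and 2.91, 9.53 and 1.94 CPM in ME (Log2FC -2.09, and -1.07 without ME2). VCAM1, an adhesion molecule for leukocytes, had 0.184, 0.374 and 0.543 CPM in PE and 0.770, 3.62 and 0.929 CPM in ME (Log2FC -2.29, and -1.19 without ME2). For these 3 genes ME1 and ME3 were also above every PE library.

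The 10 fitted cell cycle genes of 26 listed were all lower in PE, with and without ME2, at a median Log2FC of -2.85, and -1.04 without ME2. Of the 9 in the table, 7 had an unadjusted p under 0.05 (679 of all 920 table genes did), and 2 did without ME2. All were rare: the 10 summed to 2.99, 2.72 and 3.27 CPM in PE and 3.90, 14.2 and 4.31 CPM in ME. MKI67, a marker of dividing cells, had 0.0613, 0.0340 and 0.262 CPM in PE and 0.174, 2.57 and 0.443 CPM in ME, with PE3 above ME1 (Log2FC -3.06, and -1.22 without ME2). BIRC5 (survivin) and KIF11, a motor of the mitotic spindle, had 0 counts in the 3 PE libraries. Against a floor of 3 counts over the PE group, BIRC5 was at least 15.6-fold lower and KIF11 at least 14.1-fold lower in PE, and most of their ME counts came from ME2, at 0.681 and 0.609 CPM.

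Fibroblast and matrix genes turned with ME2. Of 28 listed 12 were fitted, 9 of them lower in PE, and without ME2 5 were lower and 7 higher. Their median Log2FC was -0.63, and 0.32 without ME2. COL1A1, the alpha 1 chain of type I collagen, had 28.5, 13.0 and 29.5 CPM in PE and 21.2, 114 and 34.1 CPM in ME. Apart from ME2, the groups overlapped (Log2FC -1.26, and -0.21 without ME2). SFRP4, a secreted WNT antagonist, had 0.327, 0.204 and 0.318 CPM in PE and 0.0993, 3.76 and 0.0422 CPM in ME, and its Log2FC of -2.23 became 2.05 without ME2. COL12A1, a fibril-associated collagen, was an exception. It had 8.04, 10.5 and 3.70 CPM in PE and 18.3, 15.7 and 13.6 CPM in ME, with every ME library above every PE library (Log2FC -1.10 with and without ME2). SVEP1, an extracellular adhesion protein, was higher in PE, with 0.879, 1.09 and 1.03 CPM in PE and 0.348, 0.537 and 0.654 CPM in ME.

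SOSTDC1, a secreted antagonist of BMP and WNT signals, had 1.00, 0.579 and 1.22 CPM in PE and 3.03, 8.04 and 2.45 CPM in ME. Each ME library was above each PE library, and the Log2FC was -2.25 (SE 0.51), and -1.51 without ME2. GREM1, another BMP antagonist, had 10.6, 4.90 and 8.31 CPM in PE and 16.3, 16.9 and 10.6 CPM in ME, where PE1 and ME3 met. The 8 fitted genes of 33 listed for WNT and BMP signalling had 6 lower members with ME2 and 3 without it, and a median Log2FC of -0.83, and 0.21 without ME2.

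The T and NK cell and dendritic cell lists held few fitted genes. NKG7, a granule protein of cytotoxic lymphocytes, had 1.43, 1.23 and 1.87 CPM in PE and 2.33, 4.28 and 2.89 CPM in ME (Log2FC -1.06, SE 0.29). ICOS, a T cell costimulatory receptor, had 0.0818, 0.102 and 0.0561 CPM in PE and 0.124, 0.370 and 0.317 CPM in ME, and the groups did not overlap for either gene. MS4A1 (CD20), of B cells, had 0.0409, 0.0340 and 0.0561 CPM in PE and 0.0745, 0.179 and 0.296 CPM in ME. These are few reads: 4, 3 and 3 counts in PE and 5, 31 and 15 in ME for ICOS. MS4A1 had 2, 1 and 3 counts in PE and 3, 15 and 14 in ME. Of the 3 fitted B and plasma cell genes, 2 were lower and 1 was higher in PE. The 5 fitted of 27 listed T and NK cell genes were all lower in PE (median Log2FC -0.50, and -0.46 without ME2). CD1E, which helps load lipid antigens in dendritic cells, had 0.307, 0.170 and 0.393 CPM in PE and 0.174, 11.97 and 1.25 CPM in ME, so that ME1 lay within the PE range (Log2FC -3.90, and -1.24 without ME2). With LAMP3 and FSCN1 it made up the 3 fitted of 20 listed dendritic cell genes, all lower (median Log2FC -1.07, and -0.79 without ME2).

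The 5 fitted of 28 listed interferon-induced genes, DDX58, MX1, IFI6, GBP5 and ISG15, were lower in PE with and without ME2 (median Log2FC -1.04 and -1.17). DDX58 (RIG-I), a sensor of viral RNA, had 0.654, 1.23 and 0.823 CPM in PE and 1.34, 1.45 and 2.74 CPM in ME, without overlap. MX1, an antiviral GTPase, had 2.33, 1.16 and 3.11 CPM in PE and 1.94, 3.48 and 8.21 CPM in ME, with overlap. ME3 was the highest library for both genes, and DDX58 was the member at an unadjusted p under 0.05.

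Neutrophil genes were mixed. Of 20 listed 11 were fitted, 8 of them higher in PE (5 with mapped reads alone), with a median Log2FC of 0.68, and 1.03 without ME2. PGLYRP1, a bactericidal granule protein, had 7.42, 8.78 and 9.15 CPM in PE and 2.73, 4.51 and 6.31 CPM in ME, without overlap (Log2FC 0.91, SE 0.28). CSF3R, the receptor for granulocyte colony-stimulating factor, had 8.83, 0.681 and 6.98 CPM in PE and 1.47, 1.93 and 3.12 CPM in ME, with PE2 the lowest of the 6 libraries. The other table genes of the list, MMP9 and MPO, had Log2FC below 0. MPO, the myeloperoxidase of neutrophil granules, had 0.0204, 0 and 0.0748 CPM in PE and 0.248, 0.0358 and 0.380 CPM in ME, with PE3 above ME2 (Log2FC -2.38, SE 1.05, and -2.98 without ME2). The summed CPM of the 11 genes was 67.6, 13.03 and 34.6 in PE and 13.4, 73.5 and 23.7 in ME. ME2 was the highest library and PE1 was close to it, but MMP9 alone gave 39.6 CPM of the ME2 sum.

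**Figure D4:**
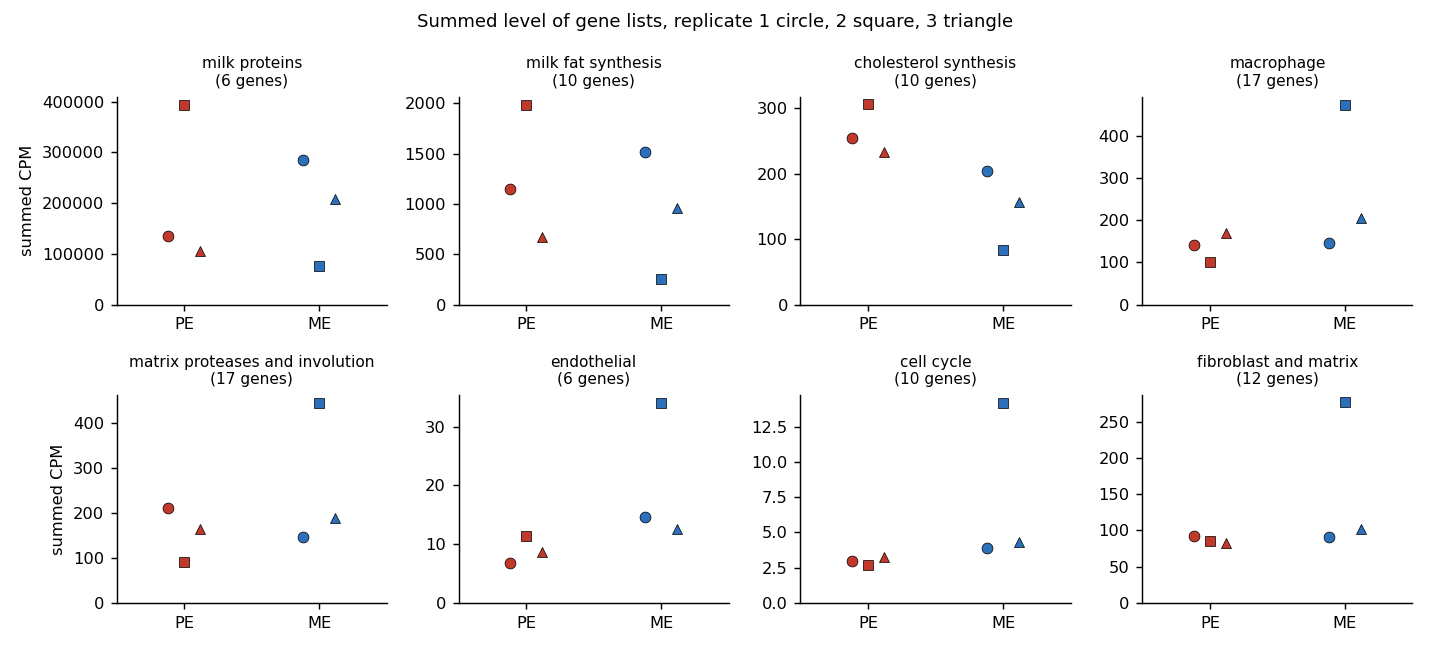
Summed CPM (linear axes from 0) of the fitted members of 8 gene lists; each point is 1 library, with PE left of ME. ME2 is the highest library for macrophage genes (475 CPM), matrix proteases (445 CPM), endothelial genes (34.0 CPM) and cell cycle genes (14.2 CPM), and the lowest for milk fat synthesis (256 CPM) and cholesterol synthesis (83.1 CPM). Most of the milk fat sum is FASN.

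Other lower genes had much the same Log2FC without ME2, which was -2.28 for LOC102169730, -2.17 for LOC102172792, -1.51 for LOC102188339, -1.73 for LOC102181479 and -2.53 for LOC102185336. LOC102191092, which RefSeq lists as CDA, the cytidine deaminase of pyrimidine salvage, had 0.368, 0.749 and 0.150 CPM in PE and 7.18, 1.15 and 15.8 CPM in ME. ME2 was the ME library nearest to PE, and the Log2FC of -4.34 (SE 0.98) was -4.89 without it. LOC102169730, a coding gene that RefSeq gives no name, had 0.838, 1.91 and 1.80 CPM in PE and 7.20, 9.82 and 7.43 CPM in ME (Log2FC -2.44, SE 0.32, with an adjusted p of 0.35 in edgeR and 7.89e-06 in DESeq2). LOC102172792, another unnamed gene, had 0.327, 0.408 and 0.374 CPM in PE and 2.01, 2.64 and 1.35 CPM in ME. For both genes the groups did not overlap. PE1 was below the other PE libraries for LOC102169730, and ME3 was below the other ME libraries for LOC102172792. LOC102188339, a long non-coding RNA, had 1.27, 2.01 and 0.992 CPM in PE and 3.80, 6.09 and 4.22 CPM in ME. LOC102181479, a transcribed pseudogene whose reads may be shared with its parent gene, had 5.91, 15.5 and 11.6 CPM in PE and 28.2, 37.6 and 45.1 CPM in ME. The unnamed genes LOC102185525 (Log2FC -2.76) and LOC102172427 (Log2FC -3.10), of the 12 lowest, had their highest CPM outside ME2. So did LOC102191092 and LOC102181479, whereas LOC102169730, LOC102172792, LOC102188339 and LOC102185336 were highest in ME2. ADAM28 (-3.26, and -1.94 without ME2), LOC102179433 (-3.22, and -1.14 without ME2) and SLC2A5 (-2.60, and -1.27 without ME2) peaked in ME2 as well. LOC102185336 had 0.0818, 0.204 and 0.262 CPM in PE and 0.944, 1.61 and 1.203 CPM in ME (Log2FC -2.77, SE 0.45).

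A further pattern set ME2 apart in the opposite direction, at the level of PE. ASB11, a substrate adaptor of a ubiquitin ligase, had 0.409, 0.613 and 1.83 CPM in PE and 8.24, 0.573 and 24.4 CPM in ME (Log2FC -3.47, SE 1.17, and -4.03 without ME2). LOC102171034, a transcribed pseudogene, had 12.5, 14.7 and 14.8 CPM in PE and 134, 13.1 and 138 CPM in ME. Without ME2 it was the 1 DEG of the quasi-likelihood test (Log2FC -3.27, adjusted p = 0.00384). SLITRK6, a membrane protein best known in neurons, had 1.39, 4.83 and 3.82 CPM in PE and 26.9, 3.38 and 27.5 CPM in ME. In the controls, ASB11 ranged as widely within a group, with 0.626, 8.48 and 4.56 CPM in PC and 0.674, 5.70 and 58.3 CPM in MC. LOC102171034 had 12.5, 12.04 and 76.8 CPM in PC and 125, 246 and 223 CPM in MC, lower in Palmera without overlap, while SLITRK6 overlapped.

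A few genes were at 0 counts throughout 1 group. AVPR2, a vasopressin receptor, had 0.225, 0.136 and 0.243 CPM in PE and 0 counts in the 3 ME libraries, at least 12.1-fold higher in PE against a floor of 3 counts over the ME group. The long non-coding RNA LOC102175023 had 0.286, 1.09 and 0.356 CPM in PE and 0 counts in ME, at least 28.2-fold higher. In the controls it had 1.28, 0 and 0.409 CPM in PC and 0 counts in MC, at least 16.5-fold higher, so it was read in 5 of 6 Palmera and 0 of 6 Majorera libraries. The pseudogene LOC102190969 had 0 counts in PE and 0.422, 0.322 and 0.633 CPM in ME, at least 19.1-fold lower. ATP6V1B1, a subunit of the proton pump, had 0 counts in PE and 0.0993, 1.56 and 0.106 CPM in ME, at least 35.9-fold lower, with most counts in ME2. These are counts of few reads, and the floors cover counting error only.

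The milk protein genes are not in the table and did not separate the breeds. The 6 fitted of 14 listed, CSN1S1, CSN1S2, CSN2, CSN3, LALBA and MUCL1, all had a Log2FC above 0 (between 0.15 and 0.51), but 1 of 6 did without ME2, without PE2 or with mapped reads alone. LALBA, the alpha-lactalbumin gene needed to make lactose, had 2670, 6583 and 2367 CPM in PE and 4921, 1569 and 2908 CPM in ME (Log2FC 0.32, SE 0.58). CSN3, the kappa-casein gene, had 27848, 50331 and 39556 CPM in PE and 44966, 18400 and 39250 CPM in ME. ME2 was the lowest and PE2 the highest of the 6 libraries for CSN2, CSN3, CSN1S2 and LALBA. The Log2FC of CSN2 was 0.15 with an SE of 0.75.

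The remaining lists had medians of either sign. The 9 fitted of 19 listed myoepithelial genes had a median Log2FC of -0.01 (-0.06 without ME2) and the 6 of 17 luminal epithelial genes one of 0.11 (0.26 without ME2), among them CLDN3, a tight junction protein with 3.39, 3.40 and 1.96 CPM in PE and 0.919, 1.68 and 1.44 CPM in ME. KIT, a receptor of luminal progenitor cells, had 1.29, 0.783 and 0.543 CPM in PE and 1.64, 2.82 and 1.35 CPM in ME (Log2FC -1.16, and -0.76 without ME2). The 10 mitochondrially encoded genes fitted of 13 all had a Log2FC above 0 (0 of 10 with mapped reads alone), with a median of 0.15, and 0.06 without ME2. Medians that turned without ME2 were those of 7 of 25 lactation signalling genes (-0.16, and 0.03 without ME2), 6 of 22 genes of fasting and glucocorticoids (-0.41, and 0.07 without ME2) and 2 of 29 genes of the secretory pathway (0.04, and -0.16 without ME2). Those of 7 of 15 adipocyte genes (-0.28, and -0.59 without ME2), 3 of 17 B and plasma cell genes (-0.11, and -0.33 without ME2) and 4 of 25 skeletal muscle genes (-0.98, and -0.77 without ME2) stayed below 0. The median of 3 of 20 skin and apocrine genes was 0.39, with no value without ME2 because 1 of them then had no counts. None of the 11 erythroid genes had counts in the deposited tables. PDK4, which limits pyruvate oxidation in fasting, had 23.3, 22.6 and 17.6 CPM in PE and 21.9, 35.9 and 63.5 CPM in ME.

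The breeds were then compared on the control diet, for the 493 table genes with counts in the PC and MC libraries. Of these 484 were fitted, 101 of which are in the deposited table of the control comparison and so were selected there as well. The quasi-likelihood test gave 1 DEG (0.207%) and 92 genes at an unadjusted p under 0.05 (19%), 7 of them outside that table. The median absolute Log2FC of the 484 genes was 1.34 for PE over ME and 0.40 for PC over MC, the first being the comparison in which they were selected. The sign was the same in both diets for 289 of 484 genes, 88 of the 182 higher and 201 of the 302 lower in PE. Groups did not overlap in the controls for 64 genes (13%), and in both diets for 43, 28 in the same direction and 15 in the opposite one. A full separation of 3 against 3 libraries has an exact permutation p of 0.1, and 13% is close to that. No share over unselected genes is given, so these counts describe the list and are not evidence of shared or reversed breed differences.

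The DEG was RNASE1, a secreted ribonuclease, with 1.22, 1.31 and 0.881 CPM in PC and 180, 170 and 567 CPM in MC (Log2FC -8.09, SE 0.61, adjusted p = 0.00156). In restricted goats it had 0.0409, 0.0340 and 0.0561 CPM in PE and 0.273, 0.561 and 0.211 CPM in ME (Log2FC -2.93, SE 0.57). It was thus lower in Palmera under both diets, but it was under 1 CPM in every restricted library, so the difference there is one of few reads. UBE2E2, a ubiquitin-conjugating enzyme, had 0.327, 0.306 and 0.281 CPM in PE and 0.695, 0.645 and 0.697 CPM in ME, beside 0.250, 0.344 and 0.220 CPM in PC and 0.513, 1.02 and 0.494 CPM in MC. LOC102181479 had 9.95, 15.7 and 6.89 CPM in PC and 18.0, 26.2 and 32.4 CPM in MC, again lower in Palmera. ACADM, an enzyme of mitochondrial fatty acid oxidation, was higher in Palmera under both diets, with 2.99, 3.78 and 3.76 CPM in PE and 1.99, 1.25 and 2.62 CPM in ME, beside 2.38, 2.97 and 3.14 CPM in PC and 1.86, 1.62 and 1.87 CPM in MC. VIM, the intermediate filament of mesenchymal cells, had 115, 69.6 and 99.8 CPM in PE and 131, 286 and 130 CPM in ME, beside 81.3, 98.2 and 108 CPM in PC and 161, 130 and 130 CPM in MC.

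**Figure D5:**
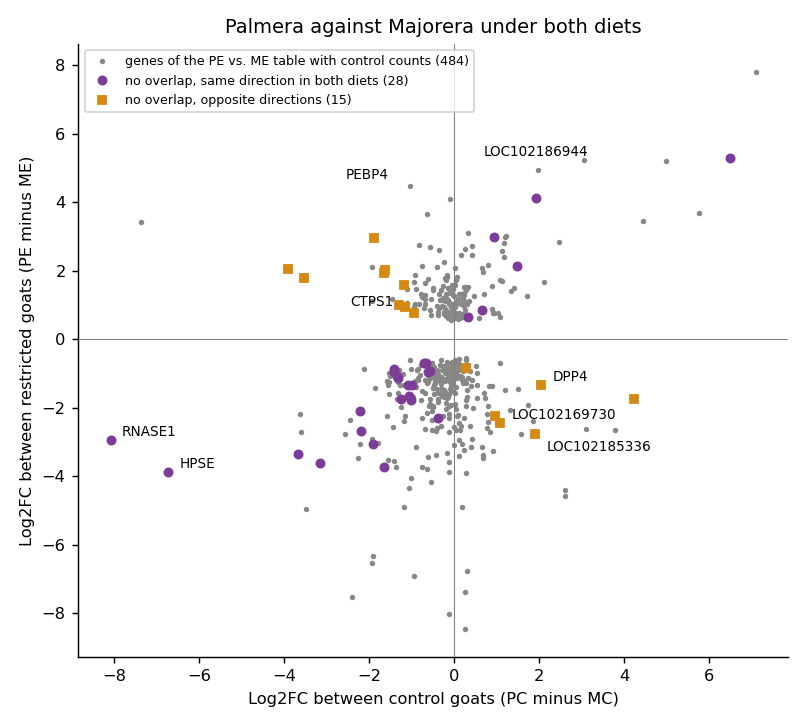
Log2FC of Palmera over Majorera on the control diet (PC over MC, horizontal axis) against that under feed restriction (PE over ME, vertical axis) for 484 genes; marked points are genes whose groups did not overlap in both diets, 28 in the same direction and 15 in the opposite one. Most genes lie near 0 on the horizontal axis and spread along the vertical one, on which they were selected.

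Of the metabolic genes, GPD1, ACSL1 and ELOVL6 overlapped between the breeds in the controls, whereas CTPS1 and ACADM did not. GPD1 had 5.97, 2.78 and 1.23 CPM in PC and 3.75, 3.34 and 3.04 CPM in MC, and ACSL1 had 144, 45.5 and 31.5 CPM in PC and 55.5, 71.2 and 95.9 CPM in MC. The control Log2FC was -0.05 for GPD1, -0.04 for ACSL1 and -0.19 for ELOVL6. The macrophage gene CD68 had 7.13, 3.35 and 3.49 CPM in PC and 6.32, 4.54 and 5.86 CPM in MC, and GPNMB had 2.66, 0.876 and 1.29 CPM in PC and 1.35, 2.71 and 1.38 CPM in MC. Both genes overlapped between the control groups.

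Whether the breed difference itself differed between the diets was tested as an interaction over all 12 libraries for 493 genes. The quasi-likelihood test called 1 gene (0.203%), and 130 genes had an unadjusted p under 0.05 (26.4%), 68 with a lower and 62 with a higher Palmera over Majorera difference under restriction. All 493 genes were selected for a difference between PE and ME, which is part of the interaction. The counts at an unadjusted p therefore describe the list and do not show how common such interactions are. The called gene was LOC102169730. It was lower in Palmera than in Majorera under restriction and had 2.38, 2.22 and 2.58 CPM in PC and 1.25, 1.09 and 0.989 CPM in MC, where it was higher in Palmera (Log2FC 1.08, SE 0.27). The difference between the diets was -3.54 (SE 0.40, with an adjusted p of 0.0115 in edgeR and 1.83e-10 in DESeq2). The call was lost when PC3 or any of the 3 MC libraries was left out.

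DESeq2 called 7 interactions, those of CTPS1, DPP4, HTATIP2, LOC102169730, LOC102182683, LOC102185336 and RNASE1. DPP4, a membrane peptidase that trims chemokines and incretins, had 2.74, 3.34 and 2.88 CPM in PE and 9.04, 5.94 and 7.70 CPM in ME, beside 10.5, 30.8 and 21.4 CPM in PC and 5.81, 7.24 and 1.98 CPM in MC. It was lower in Palmera under restriction (Log2FC -1.33, SE 0.20) and higher in Palmera on the control diet (Log2FC 2.05, SE 0.48), without overlap in either. The difference between the diets was -3.40 (SE 0.60), with an adjusted p of 0.344 by the quasi-likelihood test and 0.00173 by DESeq2. CTPS1 showed the opposite order, with 2.31, 2.06 and 0.912 CPM in PC and 4.56, 4.54 and 2.79 CPM in MC, lower in Palmera on the control diet (Log2FC -1.19). Its difference between the diets was 2.75, with an unadjusted p of 0.00016. LOC102185336 had 1.06, 0.375 and 0.535 CPM in PC and 0.257, 0.211 and 0.0353 CPM in MC, higher in Palmera on the control diet and lower under restriction (difference -4.71, SE 0.84).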

How the data were processed

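Poly(A) RNA of 12 goat mammary biopsies was sequenced by the authors as stranded read pairs, aligned with Bowtie2 2.2.3 to the goat genome CHIR_1.0 and quantified with RSEM 1.2.17. The deposited expected counts are RSEM estimates per gene and library, not normalized, and a gene is listed in a table where its unadjusted p for that pair of groups was under 0.05. The deposited log2 fold changes, p-values and FDR are the authors' own comparisons (edgeR 3.2.4) and were not used as results. The number of genes they tested was taken from the FDR (15221 for PE and ME and for the interaction, 14469 for PC and MC). Of the table columns, 0 lacked a sample.

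Expected counts were rounded and fitted with edgeR 4.0.16 (quasi-likelihood, 6 libraries per pair, 12 for the interaction), limma 3.58.1 and R 4.3.3. Effective library sizes were the study's mapped reads multiplied by TMM factors, computed on 1998 readable rows of its supplement of raw counts that were not chosen for differing. Mapped reads count both ends of a pair, so CPM are low by a nearly constant factor that leaves Log2FC unaffected. The dispersion trend came from 832 of these rows, those reaching 1 CPM in 3 or more libraries (846 for the interaction). Fitted genes were 2340 with counts in all PE and ME libraries, 920 in the table and 1420 from other tables, since the tables were computed on the same libraries with equal counts. The test was also run on simulated counts with 1 common dispersion and no library set apart as ME2 is. Those settings differ from these data, and no result above rests on them. Alternatives were DESeq2 1.42.0, edgeR's exact test, voom, other normalizations and filters, a replicate block and leaving out each library. Summaries and figures used Python 3.11.15, pandas 2.3.3, numpy 2.4.6 and matplotlib 3.10.9.

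Named genes were the DEGs, the 12 highest and 12 lowest Log2FC among non-overlapping genes with more than 100 counts in a library, genes at 0 in 1 group and at 4 or more counts in each library of the other, genes the study names for this pair, up to 4 members with the smallest p of each of 29 gene lists, and milk proteins. AMPD3, FASN, DPP4, RNASE1, SLITRK6, UBE2E2, ACADM, VIM, HTATIP2, LOC102169730, LOC102172792, LOC102181479, LOC102182683, LOC102188339 and LOC102171034 fall outside this rule and were chosen after their values were seen. The comparison, its genes and the lists were chosen with earlier results of these data known. Of the 920 gene IDs, 866 were found in RefSeq's ARS1.2 gene table, which was used for names only. Some genes are not reported here.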

Additional observations from a re-analysis of the deposited data

Results flagged for a closer look

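The breed difference of LOC102169730 was the 1 interaction with diet called by edgeR's quasi-likelihood test over all 12 libraries, and the call was lost when PC3 or any 1 of the 3 MC libraries was left out. DESeq2 called 7 interactions and mapped reads alone 3, and DPP4 and LOC102185336 were called in both of these. Its Palmera over Majorera Log2FC was lower under feed restriction than on the control diet by a difference of -3.54, in a protein-coding gene with no name in the sources used. All 3 PE libraries were below all 3 ME libraries and all 3 PC libraries were above all 3 MC libraries. The cause was not tested.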

How the results depend on the processing

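The count of DEGs between PE and ME was 0 in the quasi-likelihood test, 13 with DESeq2, 8 with the exact test and 177 with mapped reads alone (6 of the 177 higher in PE), which moves the median Log2FC of all genes fitted by -0.56. Leaving out 1 library gave 0 to 1 DEGs (1 without ME2), and 6 (without PE1), 11 (PE2), 18 (PE3), 25 (ME1), 12 (ME2) and 14 (ME3) with DESeq2, a setting chosen after seeing the data, as were TMM factors over 12 libraries and the settings for overlap. Among the table's genes, control DEGs were 1, with 2 by DESeq2 (POSTN and RNASE1) and 0 to 3 without 1 library (0 without PC2, 3 without PC3). Interactions were 1, with 7 by DESeq2, 3 with mapped reads alone and 0 to 2 without 1 library (2 without PE1). Genes without overlap numbered 506, and 300 with mapped reads alone. Without 1 library they numbered 553 to 673, but leaving out a library can only keep or raise this number. Of the 920 genes, 580 had more than 100 counts in a library, and differences of the rest are of few reads.

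Of 101 named genes, signs turned with mapped reads alone for CSN1S2 (-0.38), CSN2 (-0.52), CSN3 (-0.24), DUSP1 (-0.050), LALBA (-0.27) and MUCL1 (-0.52), and with voom for MUCL1 (-0.22). Without 1 library, the Log2FC ranged over -0.73 to 0.64 for CSN1S2, -0.87 to 0.61 for CSN2, -0.088 to 0.45 for CSN3, -0.31 to 0.80 for LALBA and -1.15 to 0.56 for MUCL1, negative without PE2 and without ME2, and over -2.77 to 2.05 for SFRP4, positive without ME2. The causes were not tested.

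Replicate numbers did not pair the samples: the correlation of same-numbered deviations was -0.003, -0.32 and 0.06 for PE and ME and -0.10, 0.07 and -0.15 for PC and MC. The replicate block left 0 DEGs for PE and ME, 1 for PC and MC and 1 interaction, and turned CSN1S2 (-0.020), CSN2 (-0.17) and MUCL1 (-0.29).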
